A study of Sus scrofa with 6 samples.

Results

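The genes POU5F1, DPPA5, PADI6 and NPM2, known for their parts in the egg and the early embryo, were followed in mature pig oocytes. They were taken as all probe sets whose only gene symbol in the array's annotation is one of these names, which gave 4 probe sets, 1 for each gene, of 23999 on the array that are not controls and 10069 that carry a single symbol. Their Entrez gene identifiers in the annotation were 100127461 for POU5F1, 100301558 for DPPA5, 414431 for PADI6 and 100154488 for NPM2. A probe set is the group of short oligonucleotides that reads 1 transcript on an Affymetrix array. The study compared oocytes of adult females (sows), described in the labels as developmentally competent, with oocytes of prepubertal females (gilts), described as incompetent, on 3 arrays each, named as biological replicates. In both groups the oocytes were drawn from follicles measuring 2 to 6 mm, were matured in culture for 42 to 44 h, were freed of cumulus cells with hyaluronidase and vortexing, and had extruded the first polar body, so they stood at metaphase II, where meiosis pauses until the sperm arrives. Strain, animals per sample and oocytes per array are not given in these sources, and in the signals fewer oocytes and less RNA per oocyte cannot be told apart. The p-values rest on the spread between these 6 samples alone, which limma, used below, shares in part across probe sets.

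An egg at metaphase II makes little new RNA. It carries a store of mRNA and protein, built up while the oocyte grew, that runs the first divisions until the embryo's own genome is switched on. Maternal-effect genes act through that store: when the mother lacks them, her embryos fail even if they inherit a working copy from the father. PADI6 and NPM2 are genes of this kind. PADI6 belongs to the peptidylarginine deiminases and is needed for the cytoplasmic lattices of the oocyte, fibrous structures thought to store maternal proteins and RNA. NPM2 is nucleoplasmin, the histone chaperone of the egg, which helps to unpack sperm chromatin and to organise the nucleoli. POU5F1, better known as OCT4, is a POU-domain transcription factor that maintains pluripotency in the inner cell mass of the blastocyst and in stem cells, and its mRNA is also stored in the egg. DPPA5 encodes a small protein with a KH domain, a fold that binds RNA, found in pluripotent cells and germ cells.

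The arrays did not share a common level, which bears on every signal below. The mean signal with 2% trimmed at each end was 121 to 160 in adult and 105 to 131 in prepubertal arrays (exact permutation p = 0.2, 2-sided; 3 against 3 arrays reach no p below 0.1). The spiked bacterial controls lay the other way, at 1726 to 1881 in adult and 1899 to 2306 in prepubertal arrays (exact permutation p = 0.1). The ratio of 3′ to 5′ signal of GAPDH, a measure of how far the copied RNA was shortened, was 23.4 to 120 in adult and 9.86 to 29.3 in prepubertal arrays (exact permutation p = 0.2). Its mean was higher in adult arrays, 66.5 against 18.8, while that of actin was 2350 against 2375. The same ratio of actin was 555 to 4841 and 335 to 4181 (exact permutation p = 1), so the wide ranges overlapped for both controls, and the part of RNA shortening in the results was not tested. The differences of the 4 genes and of the related genes below are therefore given both on the deposited signals and on quantile-normalized ones, where the 6 arrays are made to share the same distribution; ratios between genes are given on the deposited signals. The normalization moved the median log2 difference over the tested probe sets from −0.20 to −0.01. Of 9 measured genes of the oocyte list 7 passed the filter on low values. That filter keeps the brighter part of the probe sets by mean signal. H1FOO and the egg coat genes ZP4 and ZP2 stood above 99.2%, 98.0% and 96.6% of the probe sets on average. BMP15 and JAGN1, the lowest of the 7, stood above 84.1% and 79.4%. The germ cell genes DDX4 and KIT failed it, with mean signals of 6.46 and 23.3 in adult and 5.84 and 4.96 in prepubertal oocytes. Of 23 cumulus and granulosa symbols 20 were measured, with a summed signal of 668 to 881 in adult and 684 to 756 in prepubertal arrays. Of these 20, 9 passed the filter: GATA4 was at 232 in adult and 232 in prepubertal oocytes, FST at 128 and 92.0, INHBA at 126 and 100.3 and NR5A1 at 59.7 and 40.2, and VCAN, INHA, AMHR2, HSD3B1 and LHCGR had means of 13.8 to 50.7. The other 11 were dim, among them FSHR, STAR and AMH, known for granulosa cells and at most 6.05, 7.29 and 9.44 in any array. Of 10 blood and immune symbols 7 were measured, with a sum of 317 to 518 in adult and 197 to 414 in prepubertal arrays, most of it from the globin gene HBB (127 to 428), followed by CD163 at means of 21.3 and 14.5. The part of these cells in the results was not tested.

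All 4 genes gave a signal above the middle of the array, and they did so in the same order in 6 of 6 arrays: DPPA5, then PADI6, POU5F1 and NPM2. The ranges of neighbouring genes did not overlap in any of the 3 neighbouring pairs (0 overlaps). A rank places a probe set among the others of its array and does not depend on the scale of the array, but probe sets bind their targets with different strength, so it orders signals and not numbers of mRNA molecules. On average the 4 genes, in this order, exceeded 96.7%, 92.8%, 83.7% and 74.7% of all probe sets. Among 1 probe set per gene these were 93.7%, 87.0%, 72.9% and 60.6%. In the related lists below, the median measured gene, by its brightest probe set, exceeded 92.25% (maternal effect), 87.3% (oocyte), 49.3% (pluripotency) and 42.5% (protein families) of all probe sets.

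DPPA5 was among the brightest probe sets of the egg. Its rank among the 23999 was 831, 745 and 837 in the adult arrays, replicates 1 to 3 in order here and below, and 926, 650 and 772 in the prepubertal ones, which is within the top 2.71% to 3.86% of each array. It lay above 96.7% ± 0.215 of the probe sets in adult oocytes and above 96.7% ± 0.576 in prepubertal ones (SD, n = 3 arrays each). The best and the worst rank both came from prepubertal arrays, so the adult ranks lay inside the prepubertal range.

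PADI6 came next, at ranks 1738, 1480 and 1996 in adult and 1745, 1844 and 1577 in prepubertal arrays, within the top 6.17% to 8.32%. It exceeded 92.8% ± 1.08 and 92.8% ± 0.562 of the probe sets (SD, n = 3 each), and the prepubertal ranks lay inside the adult range. The mean differed by 0.0667 percentage points between the groups (exact permutation p = 1, 2-sided), and that of DPPA5 by 0.0903 points (exact permutation p = 0.9).

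POU5F1, at ranks 3576, 3632 and 3725 in adult and 3979, 4126 and 4461 in prepubertal arrays, was the 1 gene of the 4 whose ranks separated the groups. All 3 prepubertal arrays ranked it lower than any adult array. After quantile normalization, which keeps the order within each array, 8.77% of all tested probe sets were lower without overlap. POU5F1 exceeded 84.8% ± 0.314 of the probe sets in adult and 82.6% ± 1.03 in prepubertal oocytes (SD, n = 3 each). That is a difference of −2.27 percentage points (exact permutation p = 0.1, 2-sided, the smallest this design can give).

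NPM2 was the dimmest of the 4, at ranks 6103, 5423 and 6145 in adult and 5925, 6678 and 6111 in prepubertal arrays, or the top 22.6% to 27.8%. It exceeded 75.5% ± 1.69 and 74.0% ± 1.63 of the probe sets (difference −1.45 points, exact permutation p = 0.5). The highest rank was adult and the lowest prepubertal, with the other 4 arrays mixed between them. The difference rested on those arrays: it was −0.475 points without adult replicate 2 and −0.532 without prepubertal replicate 2.

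**Figure D1:**
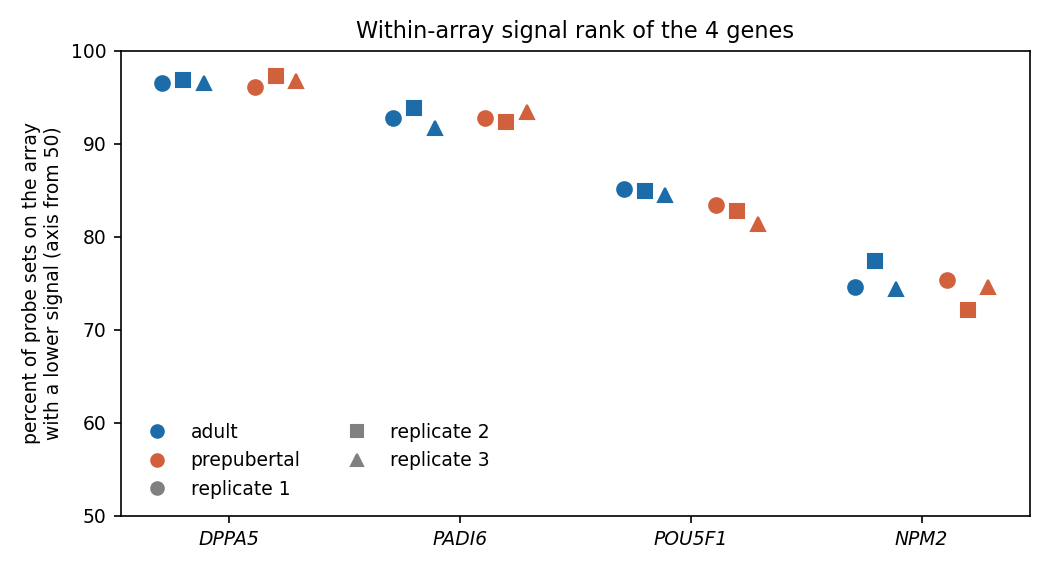
Percent of the 23999 probe sets on an array with a lower signal (vertical axis, from 50 to 100) for each of the 4 genes, with adult arrays in blue, prepubertal arrays in orange and the replicate number as the marker shape. DPPA5, PADI6, POU5F1 and NPM2 form separate steps in this order, and only for POU5F1 do the 3 prepubertal arrays (81.4 to 83.4) all lie under the 3 adult ones (84.5 to 85.1). After quantile normalization, which keeps the order within each array, 8.77% of all tested probe sets were lower without overlap.

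The comparison between adult and prepubertal eggs asks whether the RNA signals from this maternal store differ between the groups. The labels describe these as developmentally competent and incompetent, and development is not among the values here. Polyadenylated RNA was isolated, so the amount of an mRNA and the state of its poly(A) tail cannot be told apart in the signals or ranks. Signals are the deposited MAS5 values on a linear scale. Differences are prepubertal minus adult on the scale log2(signal + 16), where the added constant steadies low signals and makes folds of dim genes look smaller, and they come from limma fitted to all 12000 tested probe sets. Limma draws the variance of each gene toward that of probe sets of similar mean signal. The SE, intervals and p-values it gives are therefore not those of the gene's own spread alone. As fitted here, none of the 4 genes passed an adjusted p of 0.05 in either direction (0 of 4, with 0.442% of all tested probe sets called lower and 0.0333% called higher; 0 of 4 after quantile normalization too, with 0.0917% lower and 0.025% higher). At an unadjusted p under 0.05, limma gave 1 of the 4 in both settings, POU5F1 with lower values. Over all tested probe sets 13.6% were lower and 1.14% higher at that p on the deposited signals, and 5.79% and 5.06% on the normalized ones.

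The signal of POU5F1 was 255, 186 and 208 in the adult arrays and 166, 126 and 117 in the prepubertal ones. Every prepubertal array was below every adult array, with prepubertal replicate 1 the nearest to the adult range. The means were 216 ± 35.3 in adult and 136 ± 26.1 in prepubertal oocytes (SD, n = 3 arrays each), and the values were 1.53-fold lower in prepubertal eggs (log2 difference −0.61 ± 0.23 SE, 95% interval −1.09 to −0.13, limma adjusted p = 0.246, unadjusted p = 0.0159). Of the tested probe sets, 7.65% had a more negative difference.

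Quantile normalization made this difference smaller without closing it. The normalized log2 values of POU5F1 were 7.77, 7.73 and 7.66 in adult and 7.49, 7.40 and 7.19 in prepubertal arrays. They did not overlap, which the ranks within the arrays already fix and which is no second check. The values were 1.29-fold lower (log2 difference −0.36 ± 0.16 SE, 95% interval −0.71 to −0.01, limma adjusted p = 0.45). On this scale the adult arrays lay close together and prepubertal replicate 3 was the lowest of the 6. More negative differences were found in 11.1% of the tested probe sets. The call depended on the fit and on the scaling. On the deposited signals POU5F1 passed the threshold with array weights (−0.68, limma adjusted p = 0.0288) and with the replicate number as a block (−0.61, adjusted p = 0.0466). It also passed after scaling to the hybridization controls (−0.81, adjusted p = 0.0284). These settings called 9.57%, 7.41% and 12.7% of all tested probe sets lower. With the block and quantile normalization together it did not pass (−0.36, limma adjusted p = 0.397).

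DPPA5 gave signals of 2026, 1690 and 1778 in adult and 1526, 1636 and 1512 in prepubertal arrays. The groups did not overlap, but the nearest arrays, adult replicate 2 and prepubertal replicate 2, were only 1690 and 1636. The means were 1831 ± 174 and 1558 ± 68.1 (SD, n = 3 each), with values 1.17-fold lower in prepubertal eggs (log2 difference −0.23 ± 0.18 SE, 95% interval −0.60 to 0.14, limma adjusted p = 0.565). That is close to the −0.20 of the median probe set, and after quantile normalization the value was 1.03-fold higher, with overlapping groups (0.04 ± 0.13 SE, 95% interval −0.24 to 0.32, adjusted p = 0.934). The normalized interval spans prepubertal levels of 0.847 to 1.25 times the adult level.

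PADI6 gave 865, 795 and 616 in adult and 699, 510 and 680 in prepubertal arrays. Here the groups overlapped as deposited: adult replicate 3 lay below prepubertal replicates 1 and 3. The means were 758 ± 128 and 629 ± 104 (SD, n = 3 each), with values 1.20-fold lower in prepubertal eggs (log2 difference −0.26 ± 0.22 SE, 95% interval −0.72 to 0.19, limma adjusted p = 0.592). After quantile normalization the value was 1.01-fold higher (0.02 ± 0.16 SE, 95% interval −0.33 to 0.37, adjusted p = 0.981), and normalized levels between 0.795 and 1.29 times the adult level lie within the interval.

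NPM2 gave 80.0, 80.8 and 71.3 in adult and 70.3, 48.3 and 61.2 in prepubertal arrays. The lowest adult array and the highest prepubertal array, 71.3 and 70.3, nearly touched. The means were 77.4 ± 5.26 and 60.0 ± 11.0 (SD, n = 3 each), against array medians of 16.4 to 21.7, with values 1.24-fold lower in prepubertal eggs (log2 difference −0.31 ± 0.23 SE, 95% interval −0.78 to 0.17, limma adjusted p = 0.542). After quantile normalization the values were 1.11-fold lower with overlapping groups (−0.14 ± 0.19 SE, 95% interval −0.56 to 0.28, adjusted p = 0.832).

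**Figure D2:**
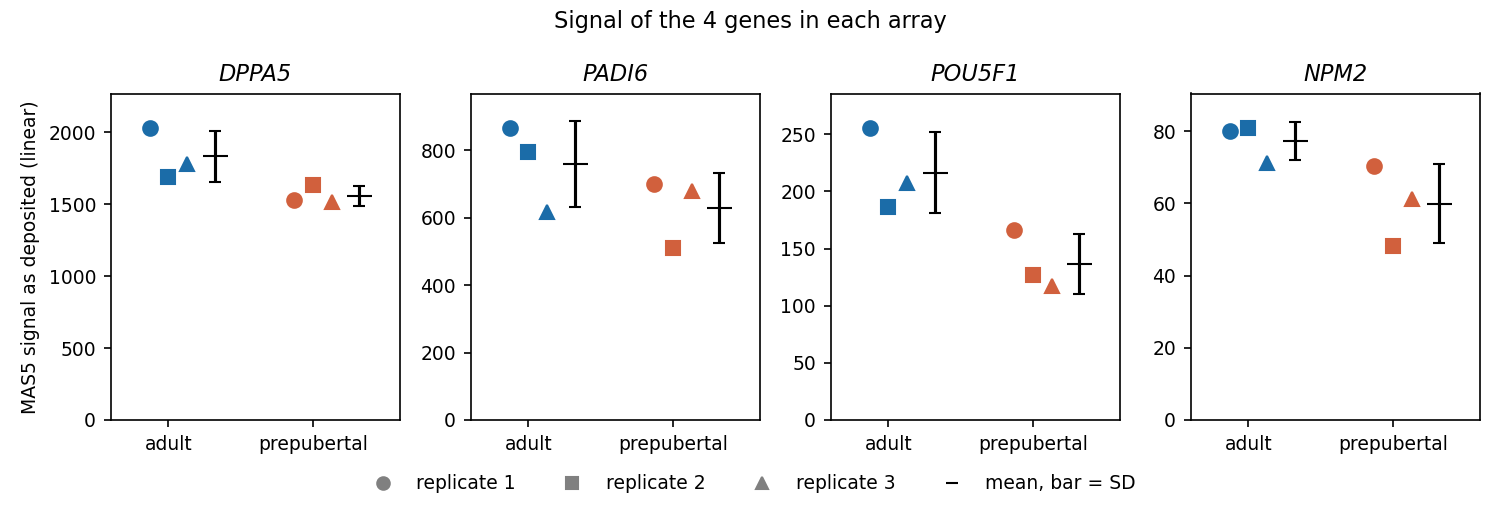
MAS5 signal as deposited (vertical axes, linear from 0, a scale of its own for each gene) of the 4 genes in the 3 adult and 3 prepubertal arrays, with the group mean and SD in black. POU5F1 shows the widest gap relative to its level, 216 ± 35.3 against 136 ± 26.1, while the PADI6 groups overlap.

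As deposited, 4 of the 4 genes had lower values in prepubertal eggs, where 74.8% of all tested probe sets did, and 3 of 4 separated the groups without overlap, where 17.1% of tested probe sets did so with lower values. After quantile normalization 2 of 4 had lower values, against 51.1% of tested probe sets, and 1 of 4, POU5F1, had no overlap, against 8.77%. The direction for DPPA5 and PADI6 thus turned with quantile normalization, while that for POU5F1 and NPM2 did not. Scaling to a common trimmed mean gave 0.04 for DPPA5 and −0.00 for PADI6, and scaling to the hybridization controls gave −0.44 and −0.48, so these scalings moved the values of both genes opposite ways.

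**Figure D3:**
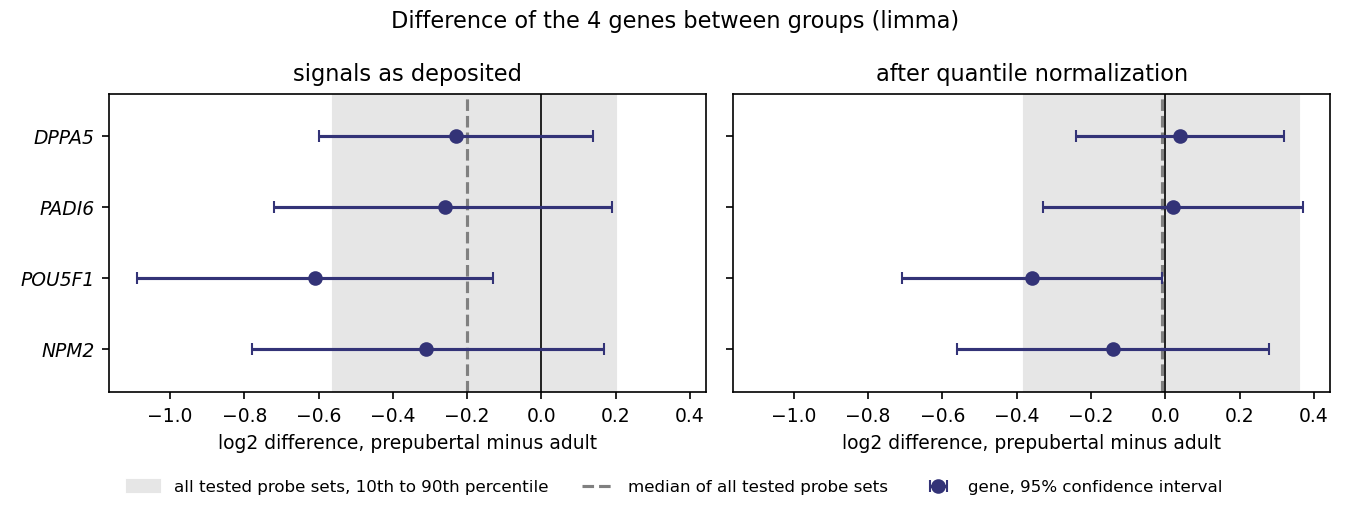
Log2 difference, prepubertal minus adult, of the 4 genes with 95% confidence intervals from limma, as deposited (left) and after quantile normalization (right); the grey band spans the 10th to 90th percentile of all 12000 tested probe sets and the dashed line their median. POU5F1 lies at −0.61 and −0.36 with intervals below 0, and the intervals of the other 3 genes include 0 in both panels.

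Ratios between the genes within an array largely cancel the level of the array (not fully, because of the added constant) and show whether the genes differed by unequal amounts. The log2 ratio of DPPA5 to POU5F1 was 2.91 to 3.08 in the adult arrays and 3.08, 3.54 and 3.52 in prepubertal arrays. It was 0.38 higher in prepubertal eggs, where it averaged 3.38 (SD 0.26, against 0.08 among adult arrays, n = 3 each; exact permutation p = 0.1, 2-sided, 0.6 after Benjamini-Hochberg adjustment over the 6 pairs compared). Prepubertal replicate 1 lay just above the highest adult array, so the groups touched without overlapping. The ratio of PADI6 to POU5F1 was 0.35 higher and that of POU5F1 to NPM2 0.30 lower (difference −0.30), both with overlapping groups (exact permutation p = 0.3, adjusted 0.6). Single arrays moved these: the first was 0.19 without prepubertal replicate 3 and 0.23 without adult replicate 3, and the second −0.19 without prepubertal replicate 3, with 0.48 and −0.42 at the other end of the ranges. The 3 pairs without POU5F1 differed by 0.04 (DPPA5 to PADI6, p = 0.8), 0.08 (DPPA5 to NPM2, p = 0.8) and 0.04 (PADI6 to NPM2, p = 0.9) in exact permutation tests, adjusted 0.9 each, and each of these took either sign when an array was left out. No pair passed the adjusted threshold, which this design cannot reach.

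Other maternal-effect genes were read from a list of 52 symbols, older names among them and the 4 genes left out; 17 had a probe set with a single symbol and all 17 were tested. The classic partners of PADI6 in the oocyte, such as NLRP5, OOEP and TLE6, and the egg genes ZAR1 and DPPA3 were not analysed here. In limma 0 of 17 passed in either direction, with 0.442% of all tested probe sets called lower and 0.0333% higher. At an unadjusted p under 0.05 there were 5 with lower values on the deposited signals, and 0 lower and 2 higher ones once normalized. Over all tested probe sets 13.6% were lower and 1.14% higher at that p as deposited, and 5.79% and 5.06% once normalized. The median log2 difference of the 17 was −0.07 as deposited and 0.04 after quantile normalization, beside −0.20 and −0.01 over all tested probe sets. Lower values were found for 13 of 17 and, normalized, for 6 of 17, where 74.8% and 51.1% of all tested probe sets had them. The smallest p in this list belonged to EZH2, the methyltransferase of the Polycomb repressive complex, at 768 ± 119 in adult and 513 ± 127 in prepubertal oocytes (log2 difference −0.59 ± 0.23 SE, limma adjusted p = 0.251, −0.30 after quantile normalization). SMARCA4, the ATPase of the SWI/SNF remodelling complex, followed at 79.2 ± 20.6 and 48.4 ± 9.84 (−0.55 ± 0.24 SE, adjusted p = 0.299, −0.39 after quantile normalization), and a second SMARCA4 probe set was near background.

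The pluripotency list held 44 symbols, of which 11 were measured and 6 passed the filter on low values. NANOG, SOX2 and LIN28A were not analysed here. None of the 6 passed in either direction in limma, with 2 at an unadjusted p under 0.05, both lower, on the deposited signals and 1, also lower, once normalized. At that p 13.6% and, normalized, 5.79% of all tested probe sets were lower. The adjusted threshold was passed by 0.442% of them with lower and 0.0333% with higher values as deposited. Lower values were found for 6 of 6 and, normalized, for 5 of 6, against 74.8% and 51.1% of all tested probe sets. The medians were −0.25 and −0.08, beside −0.20 and −0.01 over all tested probe sets. The deposited median was −0.53 without prepubertal replicate 1 and −0.44 without adult replicate 2. TCF7L1, a transcription factor at the end of the Wnt pathway that restrains the pluripotency network in stem cells, had 917 ± 105 in adult and 560 ± 22.3 in prepubertal oocytes, without overlap (log2 difference −0.69 ± 0.20 SE, limma adjusted p = 0.138, −0.41 after quantile normalization). It had the smallest p of this list. ZNF281, a zinc finger protein that binds with pluripotency factors, had −0.48 ± 0.21 SE (adjusted p = 0.302, −0.18 after quantile normalization), and its 5 other probe sets ranged from −0.63 to −0.02 as deposited and from −0.38 to 0.16 after quantile normalization. Of the other 4 that passed the filter, the stem cell factors KLF4 and STAT3, named after their values were seen, were bright, at 752 and 962 in adult and 664 and 842 in prepubertal oocytes (log2 differences −0.28 and −0.21, −0.00 and 0.07 after quantile normalization), and KLF2 and ZFX had means of 17.8 to 35.8. The 5 that failed it, ZFP42, MYC, GATA6, TEAD4 and NR5A2, had mean signals of 2.84 to 18.7.

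The protein families of the 4 genes gave 8 measured genes of 23 symbols, of which 4 passed the filter. In limma 0 of 4 passed the adjusted threshold, with 0.442% of all tested probe sets called lower and 0.0333% higher. At an unadjusted p under 0.05 there were also 0, as deposited and after quantile normalization. Over all tested probe sets 13.6% were lower and 1.14% higher at that p as deposited, and 5.79% and 5.06% once normalized. With 4 genes, 0 says little beside these shares. Lower values were found for 3 of 4 in both settings, where 74.8% and, normalized, 51.1% of all tested probe sets had them. The median difference of the 4 family genes was −0.30, and −0.08 once normalized, beside −0.20 and −0.01 over all tested probe sets. NPM1, the widely expressed nucleolar relative of NPM2, which was chosen after its values were seen, had 9967 ± 564 in adult and 9965 ± 474 in prepubertal oocytes (log2 difference 0.00 ± 0.12 SE, adjusted p = 0.9998, 0.05 after quantile normalization). NPM3, another member of that family, had 1096 ± 123 and 875 ± 95.1, without overlap (−0.32 ± 0.20 SE, adjusted p = 0.461), and −0.05 after quantile normalization. PADI2, a relative of PADI6 found in many tissues, rested on a single array: its mean of 39.2 ± 52.2 in adult oocytes came from values of 99.5, 10.6 and 7.59, against 9.51 ± 2.41 in prepubertal ones (−0.71 ± 0.43 SE, adjusted p = 0.448, −0.61 after quantile normalization). Without adult replicate 1, the array at 99.5, its difference on the deposited signals was 0.02 (limma adjusted p = 0.993).

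The genes of the oocyte list, not all of them particular to the oocyte, were compared last. Of 26 symbols 9 were measured and 7 tested. In limma 0 of 7 passed, with 0.442% of all tested probe sets called lower and 0.0333% higher. At an unadjusted p under 0.05 there was 1 with lower values as deposited and 2 with higher values after quantile normalization. Of all tested probe sets, 13.6% were lower as deposited and 5.06% higher once normalized at that p. Lower values were found for 5 of 7 and, normalized, for 2 of 7, where 74.8% and 51.1% of all tested probe sets had them. The medians were −0.05 and 0.18, beside −0.20 and −0.01 over all tested probe sets. GDF9, the growth factor with the smallest p of this list, had −0.58 ± 0.27 SE as deposited and −0.31 after quantile normalization, and the egg coat gene ZP3 −0.31 ± 0.22 SE and −0.03 (limma adjusted p = 0.327 and 0.53 as deposited).

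**Figure D4:**
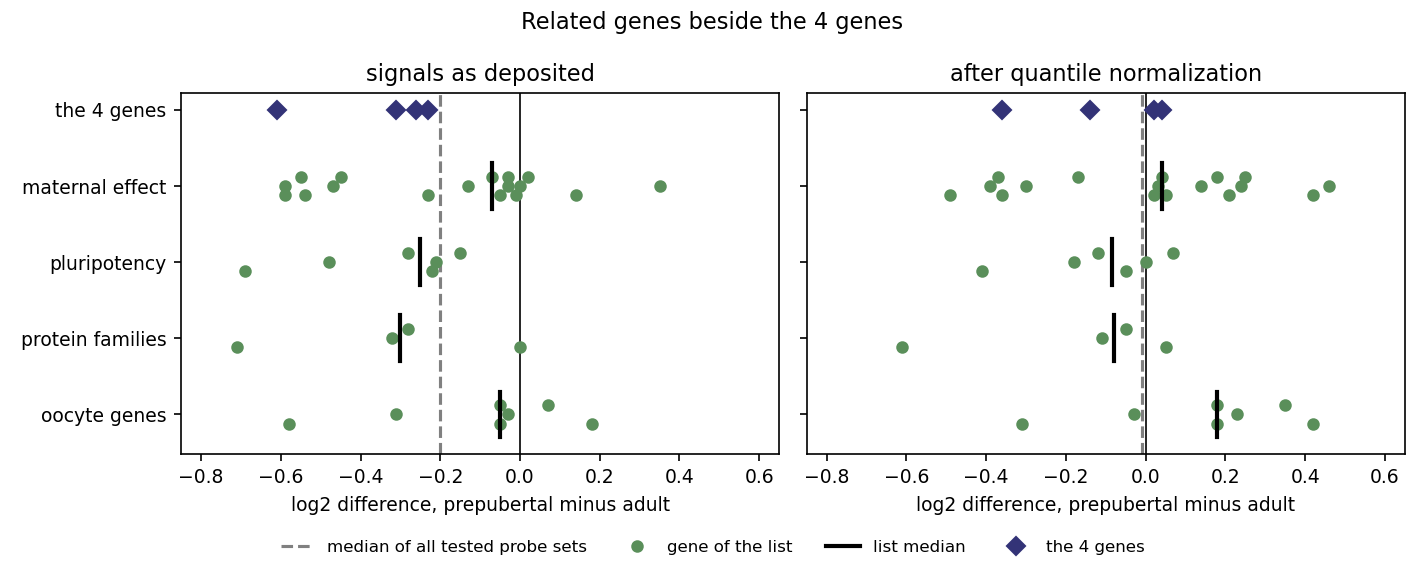
Log2 difference, prepubertal minus adult, of the tested genes of the 4 related lists (points, 1 probe set per gene; black bars, list medians) and of the 4 genes (diamonds), as deposited (left) and after quantile normalization (right), with the median of all tested probe sets dashed. No point passed the adjusted threshold, where 0.442% of all tested probe sets were called lower and 0.0333% higher as deposited. After quantile normalization these shares were 0.0917% and 0.025%. The medians of the maternal-effect list are −0.07 and 0.04 and those of the pluripotency list −0.25 and −0.08.

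The genes whose pattern over the 6 arrays came nearest to each of the 4 were sought among the 5768 probe sets with a single symbol that passed the filter after quantile normalization. Likeness was the root mean square distance between log2 values centred on their own mean over the 6 arrays, so a smaller distance means a closer pattern. For POU5F1, whose own values lay 0.20 from their mean, the nearest were GPD1L, DDX21 and SNAP91, each at 0.06. These had log2 differences of −0.32, −0.31 and −0.41 after quantile normalization and −0.60, −0.57 and −0.56 as deposited. They lie close to those of POU5F1, which the choice by distance on the same arrays largely fixes in advance. For DPPA5 (0.15 from its mean) they were UBN1 at 0.03, SARNP at 0.04 and PRPS2 at 0.05. For PADI6 (0.19) they were MKKS at 0.03 and SNRPG and SNRPD3 at 0.04 each, and MKKS and SNRPG lay near the array median, with adult mean signals of 21.9 and 33.3. For NPM2 (0.15) they were IFRD2 at 0.03 and TMEM131L and PRDX5 at 0.05 each. None of the other 3 genes was among the nearest of any of the 4. With 6 arrays and so many probe sets, close matches are a description of these arrays only.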

How the data were processed

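The deposited values are linear signals made with MAS5, as the submitters' processing notes record; version and scaling target are not given in these sources. Polyadenylated RNA was isolated on beads and put through 2 rounds of amplification before biotin labelling, per the labels' protocols. All 6 value columns matched a sample, and 124 control probe sets were left out. Symbols came from the platform's annotation: 10069 probe sets had 1 symbol, 198 had several and 13732 had no entry and stay unnamed. RefSeq's Sscrofa11.1 table updated symbols through Entrez identifiers, which 9961 of the 10069 matched. No coordinates or sequences are given.

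Probe sets with a mean log2(signal + 16) at or above the median of the 23999 were tested (12000, all 4 genes among them) with limma 3.58.1 in R 4.3.3 (lmFit, eBayes with trend, 2-sided, Benjamini-Hochberg over all 12000, threshold 0.05). Values with no count have no depth, so the number of arrays limits the precision. Ranks and ratios used exact permutation tests. The fit was tested on simulated data. The 4 genes and the lists were chosen with earlier results of these data known, and the ratios were added after the values were seen. The brightest probe set stood for a gene of a list. Besides the 4 genes, the rule for names took from each list any gene past the threshold and the 2 with the smallest p, the 2 brightest of each marker list, and the 3 nearest patterns. Further genes of the marker, oocyte and pluripotency lists were named after their values were seen, to complete the tallies. The alternatives were other constants, filters, scalings, variance models, weights per array, a block for the replicate number, other rankings and other probe sets for a gene, and leaving out each array.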

Additional observations from a re-analysis of the deposited data

How the results depend on the processing

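The lower values of POU5F1 kept their direction in 23 of 23 alternatives (−0.81 to −0.28) and stayed above the threshold in 20 (adjusted p 0.0284 to 0.727 over all). They passed it with array weights (−0.68, adjusted p = 0.0288), with the replicate block (−0.61, 0.0466) and after scaling to the hybridization controls, added after the data were seen (−0.81, 0.0284), settings that called 9.57%, 7.41% and 12.7% of all tested probe sets lower. NPM2 kept its direction in 23 of 23 (−0.49 to −0.04). DPPA5 turned to 0.04 with quantile normalization, trimmed mean scaling and the replicate block with quantile normalization, and with quantile normalization and an array left out, also added after the data were seen, ranged from −0.07 to 0.16 (0.02, 0.09, 0.02, 0.16 and 0.04 where it turned). PADI6 turned to 0.02 with quantile normalization, with and without the block, and ranged from −0.13 to 0.17 with an array left out (0.01, 0.17, 0.03 and 0.09 where it turned). As deposited, leaving out an array gave −0.74 to −0.49 for POU5F1, −0.28 to −0.15 for DPPA5, −0.40 to −0.12 for PADI6 and −0.40 to −0.19 for NPM2. Hybridization control scaling gave −0.44 for DPPA5, −0.48 for PADI6 and −0.49 for NPM2, and trimmed mean scaling −0.00 for PADI6 and −0.09 for NPM2. The cause of these turns was not tested.

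Same-numbered arrays correlated at 0.11, 0.0584 and 0.0294 in their deviations from the group means, each array best with its own number. The values were small, and adult replicate 3 reached 0.0245 with prepubertal replicate 2. This is at most a weak hint from the data and not from the design. The labels tie the numbers to nothing shared, so the block was no pairing. All called probe sets numbered 57 as reported, 918 with the replicate block, 32 with the block and quantile normalization, 15 with a constant of 1, 1 without a filter, 173 with a filter at the 75th percentile, 14 with quantile normalization, 20 with trimmed mean scaling, 1538 with hybridization control scaling, 1 without the trend, 1259 with array weights, and 3 to 658 with an array left out, the 658 without prepubertal replicate 1. Ranked among probe sets with 1 symbol or 1 probe set per gene, DPPA5 exceeded 95.6% or 93.7%, PADI6 90.8% or 87.0%, POU5F1 79.8% or 72.9% and NPM2 69.6% or 60.6%, and the POU5F1 difference was −3.45 points per gene. With an array left out, the percentile difference was −2.71 to −1.70 for POU5F1 and −2.10 to −0.475 for NPM2, and the log2 ratio differences were 0.31 to 0.53 for DPPA5 to POU5F1, 0.19 to 0.48 for PADI6 to POU5F1 and −0.42 to −0.19 for POU5F1 to NPM2.

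Calls in the maternal-effect list numbered 2 with hybridization control scaling or array weights, 1 with the replicate block and 0 to 1 with an array left out, in the pluripotency list 2 with each of those 3 settings, and in the oocyte list 1 with hybridization control scaling. Of all 12000 tested probe sets, hybridization control scaling called 1538, array weights 1259 and the replicate block 918. These were 12.7%, 9.57% and 7.41% when only lower values are counted. The maternal-effect median was 0.16 with trimmed mean and −0.27 with hybridization control scaling, and −0.26 (without prepubertal replicate 1) to −0.05 with an array left out. The pluripotency median was −0.48 with array weights, −0.46 with hybridization control and −0.04 with trimmed mean scaling, and −0.53 (without prepubertal replicate 1) to −0.18 with an array left out. The family median was −0.16 with the stricter filter, −0.08 with quantile normalization with or without the block, −0.05 with trimmed mean and −0.50 with hybridization control scaling, and −0.38 to −0.08 (without adult replicate 1) with an array left out. The oocyte median was 0.18 with quantile normalization with or without the block, 0.22 with trimmed mean and −0.26 with hybridization control scaling, and −0.16 to 0.01 with an array left out.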
